A study of Mus musculus with 48 samples.

Results

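The expression of 10 immediate early genes was followed through the brains of mice with and without a DNA repair enzyme: Fos, Fosb, Junb, Egr1, Egr2, Egr4, Nr4a1, Arc, Npas4 and Ier2. They were chosen by name as genes that neurons switch on within minutes of firing, and their rows were found through the Ensembl identifiers of the count table. All 10 of 10 were present among the 54838 genes of the table, and all 10 passed the filter on low counts in every fit. Immediate early genes need no new protein for their transcription: calcium entering through receptors and channels acts on factors already bound at their promoters, CREB and serum response factor among them. The first products are mostly transcription factors that drive a later wave of genes. In hippocampus and cortex these transcripts are used as marks of recently active neurons, and since the RNAs are short-lived their level at dissection reflects the period just before it.

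The mice were males, either lacking alkyladenine DNA glycosylase (labelled Aag KO; the gene is Mpg) or wild-type (WT). This enzyme cuts damaged, alkylated bases out of DNA. Hippocampus and prefrontal cortex came from 5-day-old pups (P5), from mice of 6 weeks (6W) and from the group named 6M (labelled 6 months, while the study's description gives 4 to 6 months), which gave 12 groups of 4 samples. Nothing in the sources used here says that samples came from separate litters, and p-values measure the spread between these samples. How the Aag allele was made and the strain background are not given in the sources used here. Total counts ran from 21615824 to 47343993 per sample. Mpg itself stood at 0.944 to 2.53 CPM (reads of the gene scaled to a fixed library size) in the 24 KO samples and at 4.46 to 8.93 CPM in the 24 WT samples, without overlap. The summed level of 5 dentate granule cell markers ran from 178 to 445 CPM in the hippocampus samples and from 17.7 to 32.8 CPM in the prefrontal ones. Samples carry a number from 1 to 4 in their titles. Whether a hippocampus and a prefrontal sample of one group with the same number came from the same mouse is not stated, nor what the number stands for. The 4 hippocampus samples numbered 1 at 6W and 6M stood apart: mitochondrial transcripts took 24.1% to 31.6% of their counts, against 15.7% to 21.1% in the other 12 hippocampus samples of these ages. The 4 prefrontal samples numbered 1 at these ages, at 17.6% to 19.6%, lay within the 14.5% to 21.4% of the others.

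Stretches before the transcription start are shown for 4 of the genes. These had the highest correlations between same-numbered samples of the 2 tissues (0.82 to 0.87), as described further on. Other members moved with them as well, and whether sites in the stretches have a part in that was not tested. The stretches are the 250 bases upstream of a RefSeq start on GRCm38.p6, read 5′ to 3′ on the strand of the gene. Capitals mark the 5-base core of the CREB response element, TGACG or its complement CGTCA, and in Egr2 also a CArG box, the sequence type that serum response factor binds.
Fos, chr12:85473640-85473889, plus strand: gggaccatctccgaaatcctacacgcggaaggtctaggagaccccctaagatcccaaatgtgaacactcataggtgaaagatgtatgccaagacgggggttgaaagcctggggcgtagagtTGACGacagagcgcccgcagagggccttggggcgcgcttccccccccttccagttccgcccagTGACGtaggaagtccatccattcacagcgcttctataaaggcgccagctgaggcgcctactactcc
Egr4, chr6:85513590-85513839, minus strand: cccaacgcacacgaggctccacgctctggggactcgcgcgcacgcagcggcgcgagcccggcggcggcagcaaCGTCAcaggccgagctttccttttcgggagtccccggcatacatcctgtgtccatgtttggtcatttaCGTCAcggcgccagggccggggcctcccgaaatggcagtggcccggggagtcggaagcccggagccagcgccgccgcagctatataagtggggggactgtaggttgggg
Nr4a1, chr15:101266596-101266845, plus strand: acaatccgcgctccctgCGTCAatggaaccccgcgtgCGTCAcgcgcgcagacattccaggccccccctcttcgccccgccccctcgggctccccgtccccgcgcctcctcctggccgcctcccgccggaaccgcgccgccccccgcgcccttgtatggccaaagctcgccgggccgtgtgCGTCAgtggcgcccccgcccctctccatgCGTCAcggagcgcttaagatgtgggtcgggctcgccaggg
Egr2, chr10:67537619-67537868, plus strand: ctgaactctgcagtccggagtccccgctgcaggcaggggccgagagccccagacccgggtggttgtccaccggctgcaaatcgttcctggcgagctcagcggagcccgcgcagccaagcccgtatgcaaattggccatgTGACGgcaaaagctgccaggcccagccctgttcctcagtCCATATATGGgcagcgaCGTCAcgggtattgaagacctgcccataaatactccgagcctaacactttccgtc
Of the 10 genes, 7 matched the RefSeq table, with 11 start sites in all; Egr1, Arc and Ier2 did not. At least 1 copy of TGACG or CGTCA, searched on both strands, lay within 250 bases upstream of all 7 genes (Fos, Fosb, Junb, Egr2, Egr4, Nr4a1 and Npas4) and of 9 of their 11 starts. The starts without a copy were other starts of Egr2, with windows from chr10:67535249 and chr10:67537316. Further windows of Egr2 overlap the one shown, so the 11 starts are not separate. The same letters were found upstream of 17.8% of all 32851 promoters, a share per start and not per gene. Nr4a1 held 4 copies, 69 and 40 bases before the start among them, and Fos held 2, the nearer one 66 bases before it. The full palindrome TGACGTCA was in none of the 7, against 1.55% of all promoters. A CArG box was found upstream of Egr2 and of no other of the 7, against 1.47% of promoters, and TATAAA upstream of Fos, against 12.4%. The AP-1 site TGANTCA was in none of the 7, against 6.75%. These matches describe letters in a window and not bound sites.

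Levels between genes were compared per length of exon, as CPM per kilobase. Egr1, a zinc finger transcription factor, was the highest of the 10 in each of the 12 groups, from 4.97 ± 1.11 CPM per kilobase (SD, n = 4) in P5 KO hippocampus to 53.7 ± 20.8 in 6W KO prefrontal cortex. Nr4a1, an orphan nuclear receptor, came next at P5 in both tissues, at 2.84 to 4.96 CPM per kilobase. Arc, a synaptic protein that drives removal of AMPA receptors, ranked 6th or 7th at P5 with 0.975 to 1.25 CPM per kilobase and 2nd or 3rd at 6W and 6M with 10.95 to 18.1. The means of Arc and Nr4a1 lay within 1 SD of Arc from each other in 7 of the 8 groups of 6W and 6M, all but KO hippocampus at 6W, so their order is not resolved in those 7. Egr2 and Fosb filled the lowest ranks, Fosb at P5 and Egr2 at 6W and 6M in both tissues. The plot of CPM by group gives each gene in all 48 samples.

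**Figure D1:**
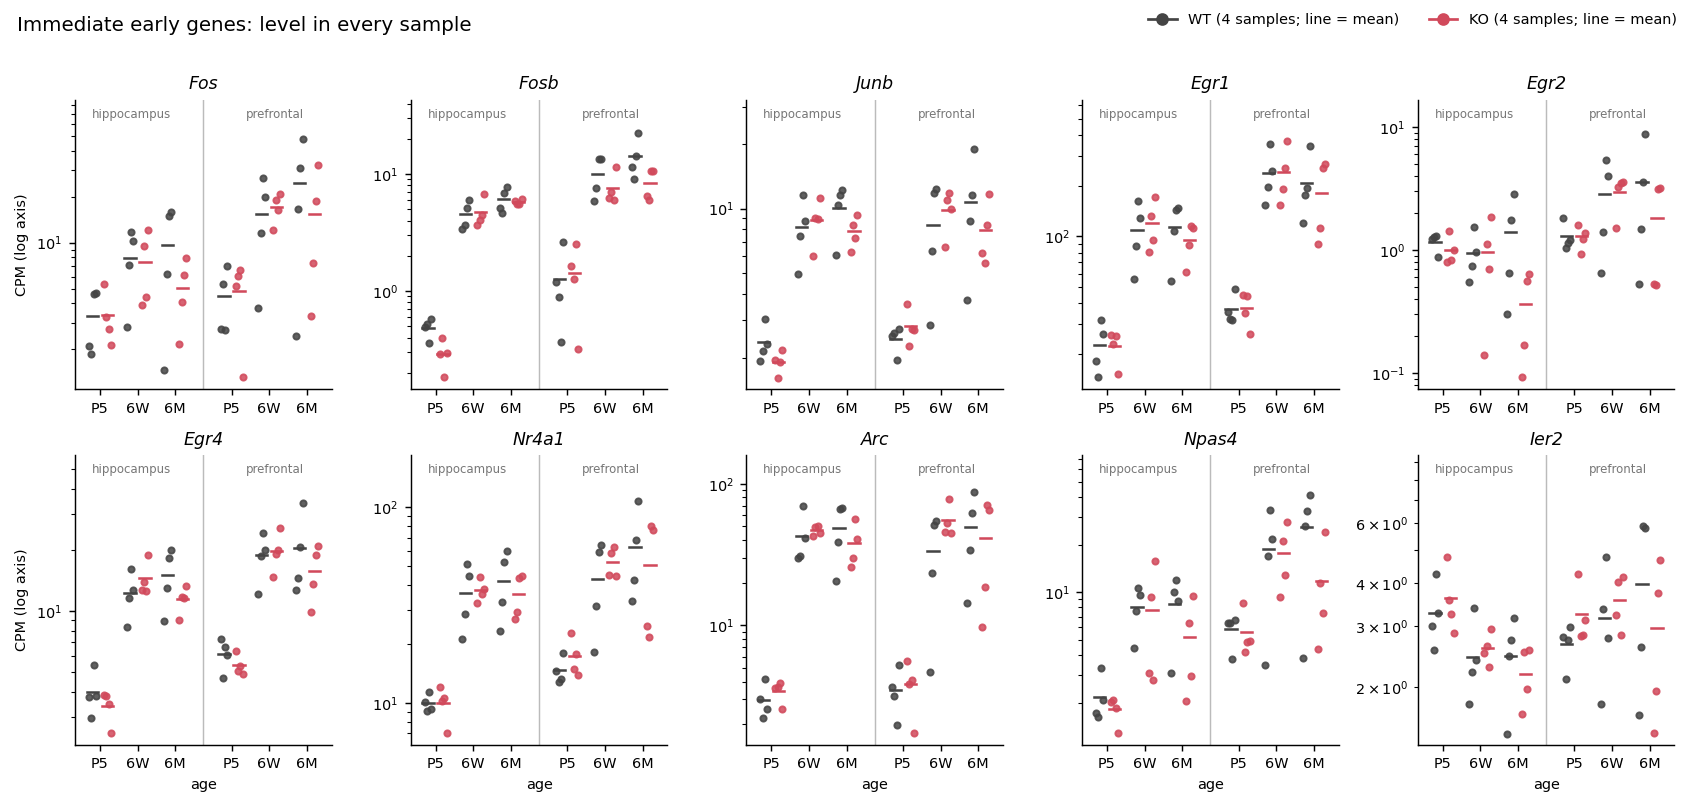
Scaled counts (CPM) of the 10 genes in all 48 samples, on log axes, by age, with hippocampus at left and prefrontal cortex at right of each panel. Each point is a sample, placed left to right by its number 1 to 4 within the group, and lines are group means; Arc is at 1.74 to 5.54 CPM at P5 and at 4.67 to 86.9 CPM at 6W and 6M.

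The first comparison asks how the genes differed between the newborn and the 6-week-old brain. Most were higher at 6W. In 4 comparisons of 6W with P5 (2 tissues, 2 genotypes), 31 of 40 tests passed an adjusted p of 0.05 in edgeR's quasi-likelihood test, all 31 in the direction of higher at 6W: 7 of 10 genes in KO hippocampus, 8 in WT hippocampus, 8 in KO and 8 in WT prefrontal cortex. Across all genes tested the share called higher was 31.2%, 31.4%, 30.2% and 30.6% in the same order. The median log2 difference of the 10 genes was 2.08, 1.84, 1.80 and 1.70, beside 0.01, 0.02, -0.02 and 0.00 over all genes. In bulk tissue, fewer cells of a type and less RNA per cell cannot be told apart. Marker lists moved with age too: all 5 immature neuron markers (Dcx, Sox11, Tubb3, Stmn2, Igfbpl1) were called lower at 6W in each comparison, their sum going from 3984 to 6556 CPM at P5 to 457 to 765 CPM at 6W, and all 6 oligodendrocyte and all 6 microglia markers were called higher. Of 6 astrocyte markers 3 or 4 were called higher in each comparison, and 1 was called lower in all but WT hippocampus. Of 5 endothelial cell markers 2 were called higher and 2 or 3 lower in each. In hippocampus 4 of 5 dentate granule cell markers were called higher in both genotypes (median log2 difference 3.47 in KO and 3.30 in WT). Of 6 choroid plexus markers 5 were called lower in WT hippocampus (median -3.55), their sum being 1988 to 7558 CPM at P5 and 54.0 to 1179 CPM at 6W, while in KO hippocampus 1 was called higher and 0 lower, at 12.8 to 1926 and 101 to 4892 CPM. Of 6 glutamatergic neuron markers 4 were called lower in prefrontal cortex in both genotypes (median -1.24), and 3 in KO and 2 in WT hippocampus (median -0.40 and -0.08), with 1 called higher in each of the 4 comparisons. Their sum was nonetheless higher at 6W in hippocampus, at 856 to 1035 CPM at P5 and 1498 to 1659 CPM at 6W in KO and 777 to 958 and 1397 to 1561 CPM in WT, without overlap. In prefrontal cortex it was 1211 to 1957 and 1770 to 2222 CPM in KO and 1144 to 2014 and 1755 to 2060 CPM in WT, with overlap. Of 5 GABAergic neuron markers 3 in hippocampus and 2 in prefrontal cortex were called higher in both genotypes, and 1 lower in each. In hippocampus their sum was 278 to 321 and 562 to 669 CPM in KO and 303 to 315 and 461 to 700 CPM in WT. In prefrontal cortex it was 226 to 428 and 606 to 823 CPM in KO and 209 to 521 and 598 to 844 CPM in WT. Of 8 striatal markers 3 were called higher and 0 lower in prefrontal cortex, and 1 higher and 2 lower in hippocampus. Of 5 blood markers 3 in KO and 4 in WT were called higher in prefrontal cortex. No marker in these lists was at 0 in any group. Mitochondrial transcripts took 6.33% to 13.2% of counts in the P5 samples and 14.5% to 31.6% in the 6W samples, without overlap. The TMM scaling factor of the libraries was 1.01 to 1.196 at P5 and 0.821 to 1.022 at 6W. The part of the markers and of these library measures in the result was not tested.

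Arc showed one of the largest steps. In WT prefrontal cortex its 4 values were 3.63, 3.17, 1.96 and 5.21 CPM at P5 and 4.67, 23.5, 51.4 and 54.3 CPM at 6W. In WT hippocampus they were 3.00, 2.21, 4.15 and 2.56 CPM at P5 and 29.8, 31.0, 69.4 and 41.6 CPM at 6W. The ages did not overlap in hippocampus, while in WT prefrontal cortex 1 sample at 6W, number 1, remained among the P5 values. The log2 difference was 3.85 ± 0.33 (SE) in WT and 3.77 ± 0.33 in KO hippocampus, with adjusted p of 7.99e-11 and 9.31e-11, and 3.23 ± 0.65 in WT and 3.82 ± 0.65 in KO prefrontal cortex, with adjusted p of 0.000128 and 1.67e-05 (edgeR).

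Among the AP-1 factors, which bind DNA as Fos and Jun family pairs, Fosb had the lowest level per length of the set at P5 and came 9th at 6W. In KO hippocampus its values were 0.289, 0.393, 0.185 and 0.295 CPM at P5, resting on 6 to 19 counts per sample across both genotypes, and 3.68, 4.07, 4.51 and 6.76 CPM at 6W. No P5 sample reached any 6W sample, and the log2 difference was 4.04 ± 0.27 (adjusted p 5.84e-13). In WT hippocampus it was 3.22 ± 0.25, and in prefrontal cortex 2.39 ± 0.44 in KO and 2.96 ± 0.45 in WT, called in each. Junb rose by a log2 difference of 1.74 to 2.21 in the 4 comparisons. A stretch of 173 bases, 7.52% of its exon length, overlaps Prdx2 on the other strand, and the strand setting of the counting is not given in the sources used here. Fos was called in 3 of the 4: in WT hippocampus it was 2.12, 1.87, 4.58 and 4.67 CPM at P5 and 2.82, 7.09, 11.7 and 10.3 CPM at 6W, with overlapping ages and a log2 difference of 1.27 ± 0.51 (adjusted p 0.0329). In KO hippocampus the difference was 1.15 ± 0.51 and missed the threshold (adjusted p 0.0543), and in prefrontal cortex it was 1.81 ± 0.66 in KO and 1.77 ± 0.67 in WT (adjusted p 0.0207 and 0.0250). The prefrontal Fos call was lost in WT without P5 sample 1 or 3 or 6W sample 3 or 4 (adjusted p up to 0.0981), and in KO without P5 sample 4 (0.0677). The Fos call in WT hippocampus was lost in DESeq2 and on leaving out its P5 sample 1 or 2 or its 6W sample 3 or 4, with adjusted p up to 0.104. In KO hippocampus Fos passed under 9 alternatives, among them leaving out 6W sample 1 or 3 or P5 sample 1 (adjusted p 0.0304, 0.0359 and 0.0307).

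The 3 EGR zinc finger factors parted. Egr1 rose most, from 22.6 ± 7.73 to 109 ± 46.5 CPM (SD, n = 4) in WT hippocampus and from 37.0 ± 8.01 to 237 ± 86.0 CPM in WT prefrontal cortex, log2 differences of 2.26 ± 0.32 and 2.67 ± 0.36, and no P5 value overlapped a 6W value in either tissue or genotype. Egr4 rose by 1.60 to 2.08 on the log2 scale in the 4 comparisons, also without overlap. Egr2 was called in none: in hippocampus its log2 difference was -0.06 ± 0.54 in KO and -0.30 ± 0.53 in WT, and in prefrontal cortex 1.18 ± 0.64 and 1.13 ± 0.65 (adjusted p 0.115 and 0.134). When just these 8 samples were fitted, Egr2 was called higher at 6W in KO prefrontal cortex (1.19, adjusted p 0.00396). Egr2 had 2 to 65 counts in the 16 hippocampus samples at 6W and 6M, and 22 to 38 in the 8 at P5.

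Nr4a1 rose by a log2 difference of 1.54 to 1.92 in the 4 comparisons, for example from 9.99 ± 1.07 to 36.4 ± 13.8 CPM in WT hippocampus. Npas4, a basic helix-loop-helix factor known for its response to calcium in neurons, rose by 1.64 to 2.09, from 2.18 ± 0.766 to 8.06 ± 2.72 CPM in WT hippocampus and from 5.81 ± 1.36 to 18.7 ± 12.2 CPM in WT prefrontal cortex. In the latter, sample 1 at 6W, at 3.45 CPM, lay below every P5 value. The prefrontal Npas4 call was lost in KO without 6W sample 4 and in WT without 6W sample 3 (adjusted p 0.0600 and 0.0760). Ier2, a small nuclear protein of the early response, was called in none of the 4 comparisons. Its log2 difference was -0.48 ± 0.22 in KO and -0.42 ± 0.22 in WT hippocampus (adjusted p 0.0624 and 0.104) and 0.12 ± 0.35 and 0.25 ± 0.35 in prefrontal cortex. Ier2 was called lower at 6W in KO hippocampus when just these 8 samples were fitted, without P5 KO sample 4 and without 6M WT sample 1 (adjusted p 0.0470, 0.0349 and 0.0427), and in WT hippocampus without 6W sample 3 (0.0287). Of the 40 sets of values, 27 did not overlap between ages, where 55.8%, 53%, 50.2% and 56.5% of all genes did not overlap in KO and WT hippocampus and KO and WT prefrontal cortex. Leaving out the 4 hippocampus samples of high mitochondrial share gave 32 calls in place of 31.

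**Figure D2:**
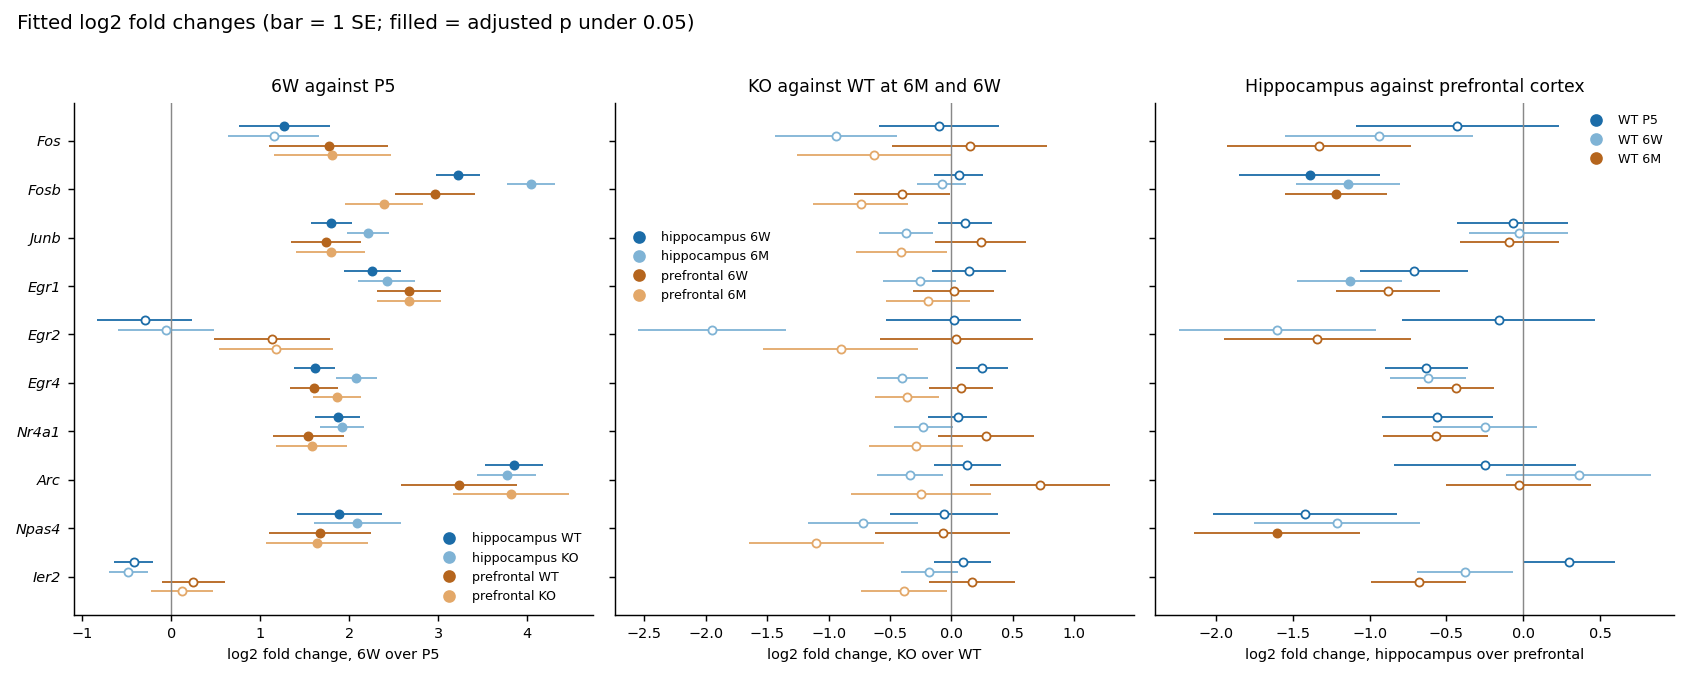
Fitted log2 differences of the 10 genes, with bars of 1 standard error and filled points where the adjusted p was under 0.05, for 6W against P5, for KO against WT at 6W and 6M, and for hippocampus against prefrontal cortex in WT. In the first panel Arc and Fosb lie between 2.39 and 4.04 while Egr2 and Ier2 have open points; in the middle panel all points are open.

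Between 6W and 6M no gene was called in either tissue or genotype. The count was 0 of 40 in edgeR and 0 in DESeq2, with 2 at an unadjusted p under 0.05 in edgeR (Egr2 in KO hippocampus, -1.40 ± 0.62, and Fosb in WT hippocampus, 0.42 ± 0.20). In KO hippocampus Egr2 was lower at 6M than at 6W in 4 of 4 same-numbered pairs, as were Egr4 and Ier2. With the number as a block the Egr2 difference there was -1.35, with an unadjusted p of 0.0202 and an adjusted p of 0.484 in edgeR. Of all genes, 0.45% and 0.157% were called in KO and WT hippocampus and 0.0937% and 0.0386% in KO and WT prefrontal cortex. The log2 difference of Arc was -0.30 ± 0.27 and 0.17 ± 0.27 in KO and WT hippocampus and -0.41 ± 0.57 and 0.57 ± 0.57 in KO and WT prefrontal cortex.

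The question of the series is how loss of Aag alters these tissues. For the 10 genes no difference between KO and WT passed the test at any age: 0 of 60 tests in edgeR, with adjusted p from 0.590 upward, and 0 in DESeq2. Of all genes tested, 0.118%, 0.0394% and 0.045% of the hippocampus fit were called at P5, 6W and 6M, and 0.0496%, 0.0331% and 0.0331% of the prefrontal fit. At an unadjusted p under 0.05 there were 2: Fosb in P5 hippocampus, -0.76 ± 0.34, and Egr2 in 6M hippocampus, -1.95 ± 0.60. None of the 60 sets separated the 4 KO from the 4 WT values, where 4.46%, 2.83% and 2.04% of all genes did so at P5, 6W and 6M in the hippocampus samples and 3.33%, 2.58% and 1.86% in the prefrontal ones. At 6M the fitted difference was below 0 for all 10 genes in both tissues, from -1.95 to -0.08 in hippocampus with a median of -0.36 and from -1.10 to -0.19 in prefrontal cortex with a median of -0.40, where the median over all genes was 0.00 in each. The 10 genes moved together within groups, so these signs are not separate observations.

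The 6M values show how wide the groups were. Fos in hippocampus was 2.18, 4.11, 6.11 and 7.91 CPM in KO and 1.46, 6.22, 14.8 and 15.9 CPM in WT, numbers 1 to 4 in order. Egr2 in hippocampus was 0.0928, 0.168, 0.559 and 0.639 CPM in KO and 0.301, 0.650, 1.76 and 2.85 CPM in WT. For Fos the WT group held both the lowest and the highest sample, and for Egr2 the 2 higher KO samples lay between the 2 lower WT samples. In prefrontal cortex Npas4 was 4.36, 11.4, 7.41 and 24.0 CPM in KO and 3.80, 26.1, 32.5 and 41.1 CPM in WT, a log2 difference of -1.10 ± 0.55. With genes of low count kept in the fit, Fos, Egr2 and Npas4 were called lower in KO hippocampus at 6M, with adjusted p of 2.47e-05, 0.000482 and 0.0170 (edgeR), beside 105 of 54838 genes called. Their log2 differences hardly moved, at -0.95, -1.96 and -0.73 beside -0.94, -1.95 and -0.72 in the main fit. The calls were thus gained through smaller p-values and not through larger differences. The KO against WT difference over all ages was called for 0 of 20 tests, with 1 at an unadjusted p under 0.05 and 0.0675% and 0.0661% of all genes called in hippocampus and prefrontal cortex. A change of the genotype effect with age was called for 0 of 20, with 1 at an unadjusted p under 0.05 and 0.00562% and 0.00551% of all genes called. A genotype effect that differed between hippocampus and cortex was called for 0 of 10, with 0 at an unadjusted p under 0.05 and 0% of all genes called (edgeR). DESeq2 also gave 0 for each of the 3.

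Hippocampus held less of several members than prefrontal cortex. Of 60 tests in 6 comparisons of matched genotype and age, 10 passed, all lower in hippocampus. The share of all genes called lower in hippocampus was 12.5%, 13.6% and 10% in KO and 12.7%, 13.8% and 11.2% in WT at P5, 6W and 6M, so 10 of 60, or 16.7%, lies near the background in this fit. That reading depends on the block: with the number in the title as a replicate block 22 of 60 were called, or 36.7%, where 10.2% to 14.3% of all genes were called lower, and with genotype, age and number together as the block 36 of 60, or 60%, where 9.7% to 13.2% were. All were lower in hippocampus. The labels do not say that the numbers pair the tissues. Values of the tissues did not overlap in 9 of the 60 sets, where 21.4%, 26.6% and 23.5% of all genes in KO and 27.2%, 26.6% and 24% in WT did not. Fosb gave 4 of the 10 calls: -2.33 ± 0.51 in KO at P5 and -1.39 ± 0.46, -1.14 ± 0.34 and -1.22 ± 0.33 in WT at P5, 6W and 6M. In WT at 6M the 4 hippocampus samples had 5.12, 4.69, 6.84 and 7.82 CPM and the 4 prefrontal samples 11.5, 9.05, 14.2 and 22.5 CPM, with no overlap. Egr1 was called in KO at 6W and 6M (-1.01 ± 0.34 and -0.95 ± 0.34) and in WT at 6W (-1.13 ± 0.34), Npas4 in KO at P5 (-1.64 ± 0.61) and in WT at 6M (-1.60 ± 0.54), and Egr2 in KO at 6M (-2.37 ± 0.74). No call was made for Arc, at -0.25 to 0.36 and within 1 SE of 0 in all 6 comparisons, or for Junb, at -0.57 to -0.03 and within 1 SE of 0 in all but KO at P5. Without 1 library, the WT 6M prefrontal sample numbered 1, the count was 19, or 31.7%, where 9.54% to 13.8% of all genes were called lower. Without the 4 hippocampus samples of high mitochondrial share it was 7, or 11.7%, where 8.68% to 13% were, the Egr1 calls in KO and the Npas4 call in WT at 6M being lost. Of the 10 calls 8 were lost under at least 1 of 55 alternatives, the other 2 being Fosb in KO at P5 and in WT at 6W. Npas4 in KO at P5 was lost without any 1 of the 4 hippocampus samples and without prefrontal sample 1 or 4 (adjusted p 0.0596 to 0.152). Egr1 in KO at 6M was lost in DESeq2 (0.0569) and without hippocampus sample 1, 2 or 4 or prefrontal sample 3 or 4 (0.0534 to 0.216), in KO at 6W without hippocampus sample 1 or 3 or prefrontal sample 4 (0.0733 to 0.143), and in WT at 6W without hippocampus sample 1 or prefrontal sample 3 (0.0669 and 0.0771). Egr2 in KO at 6M was lost without hippocampus sample 1 or 2 or prefrontal sample 3 or 4 (0.056 to 0.0909), and Npas4 in WT at 6M without hippocampus sample 1 or 4 or prefrontal sample 3 or 4 (0.0529 to 0.108). Fosb in WT was lost at P5 without hippocampus sample 3 or prefrontal sample 4 (0.0586 and 0.266) and at 6M without prefrontal sample 4 (0.0525). Cell type markers differed between the tissues as well. At 6W and 6M, 7 or 8 of 8 striatal medium spiny neuron markers were called lower in hippocampus, their sum being 39.6 to 64.5 CPM there and 95.5 to 561 CPM in the prefrontal samples, and 3 to 5 of 5 blood markers, at 96.9 to 300 and 155 to 613 CPM. At these ages all 5 dentate granule cell markers and 5 or 6 of 6 oligodendrocyte markers were called higher in hippocampus. Choroid plexus markers were called higher in hippocampus in 4 to 6 of 6 at every age (median 3.56 to 6.11), their sum being 12.8 to 7558 CPM there and 4.89 to 28.0 CPM in the prefrontal samples. At P5, 5 of 6 astrocyte markers were called higher in hippocampus, against 2 or 3 at 6W and 6M. Of 6 microglia markers 2 in KO and 4 in WT were called higher there at P5. At P5 also 3 of 8 striatal markers and 0 of 5 blood markers were called lower. The sum of 6 glutamatergic neuron markers was 777 to 1035 CPM in hippocampus and 1144 to 2014 CPM in prefrontal cortex at P5. At 6W it was 1397 to 1659 and 1755 to 2222 CPM, and at 6M 1473 to 1755 and 1548 to 2084 CPM, with overlap at 6M. Single ones went both ways, 1 or 2 called higher and 2 or 3 lower. Of 5 GABAergic neuron markers 2 were called lower at P5 and 0 or 1 at 6W and 6M. No marker was at 0 in any group, and their part in the result was not tested.

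The members varied far more within groups than most genes did. Over 24 samples of a tissue, the within-group SD of log2 CPM was 1.22 for Fos, 1.11 for Egr2, 1.08 for Arc and 1.03 for Npas4 in prefrontal cortex, where the median gene had 0.25. In hippocampus it was 0.95 for Fos and 0.80 for Npas4, where the median gene had 0.22. Against genes of like abundance, 18 of the 20 values lay at the 89.9th percentile or above, and the exceptions were Fosb and Ier2 in hippocampus at the 49.4th and 62.5th. In prefrontal cortex Arc's biological coefficient of variation was 0.56 where the trend at its abundance was 0.13. The largest ratio of highest to lowest value was that of Fos in WT 6M prefrontal cortex, which spanned 2.45 to 47.8 CPM, a ratio of 19.6. Other members were widest in other groups, Arc in WT 6W prefrontal cortex (11.6) and Fosb in KO P5 prefrontal cortex (7.83) among them.

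**Figure D3:**
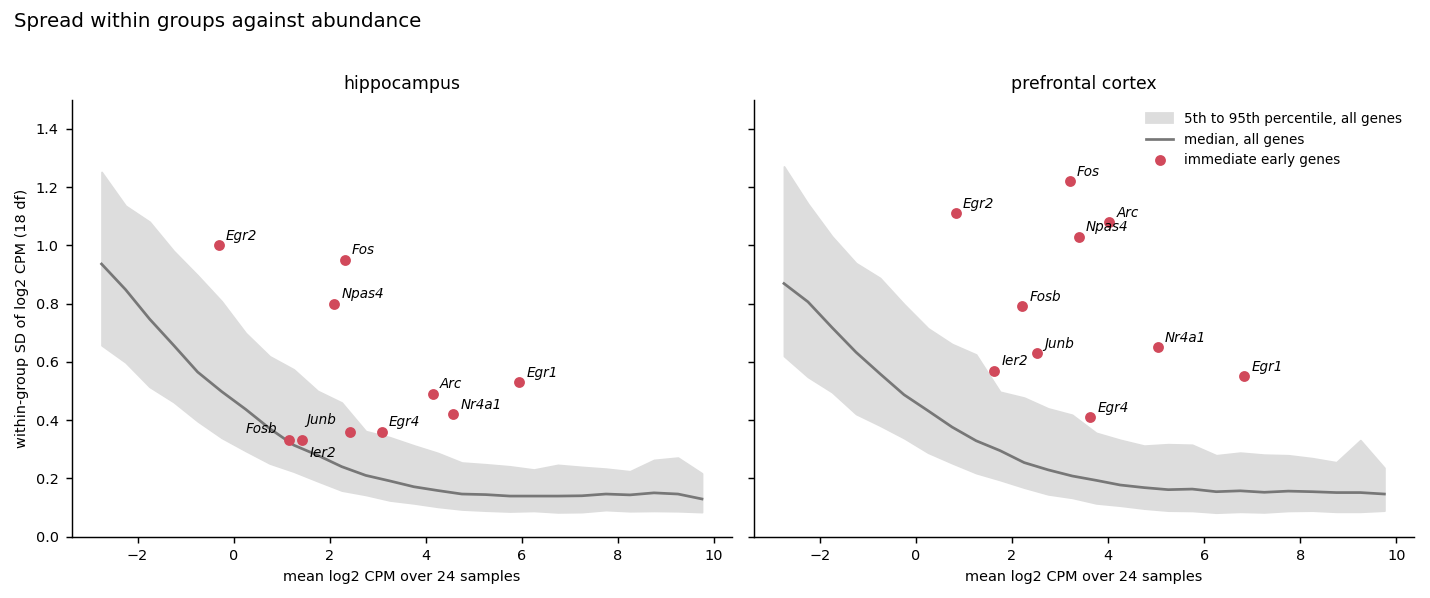
Within-group standard deviation of log2 CPM against mean log2 CPM in hippocampus and prefrontal cortex, with the median (line) and the 5th to 95th percentile (shade) of all genes by abundance and the 10 genes as points. In prefrontal cortex Fos, Egr2, Arc and Npas4 lie between 1.03 and 1.22, and in hippocampus Fosb and Ier2, both at 0.33, lie near the line.

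The spread was larger at 6W and 6M than at P5 for most members. For Npas4 in prefrontal cortex the within-group SD was 1.23 at 6W and 6M and 0.42 at P5, and for Egr2 1.34 and 0.34, where the median gene had 0.22 and 0.28. Fosb in prefrontal cortex went the other way, with 0.51 and 1.17. The order of the samples within the groups of 6W and 6M recurred. In 80 sets of 4 values (10 genes, 8 groups), the sample numbered 1 was the lowest in 66, the sample numbered 2 in 7, number 3 in 5 and number 4 in 2. The highest was number 4 in 54 and number 3 in 25, and number 1 in 0. Over all genes number 1 was lowest in 28.3% of sets and number 4 highest in 22.0%. The 10 genes moved together within groups, so the 80 sets are not separate observations. At P5 the lowest of the 40 sets was number 1 in 2, number 2 in 16, number 3 in 8 and number 4 in 14.

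**Figure D4:**
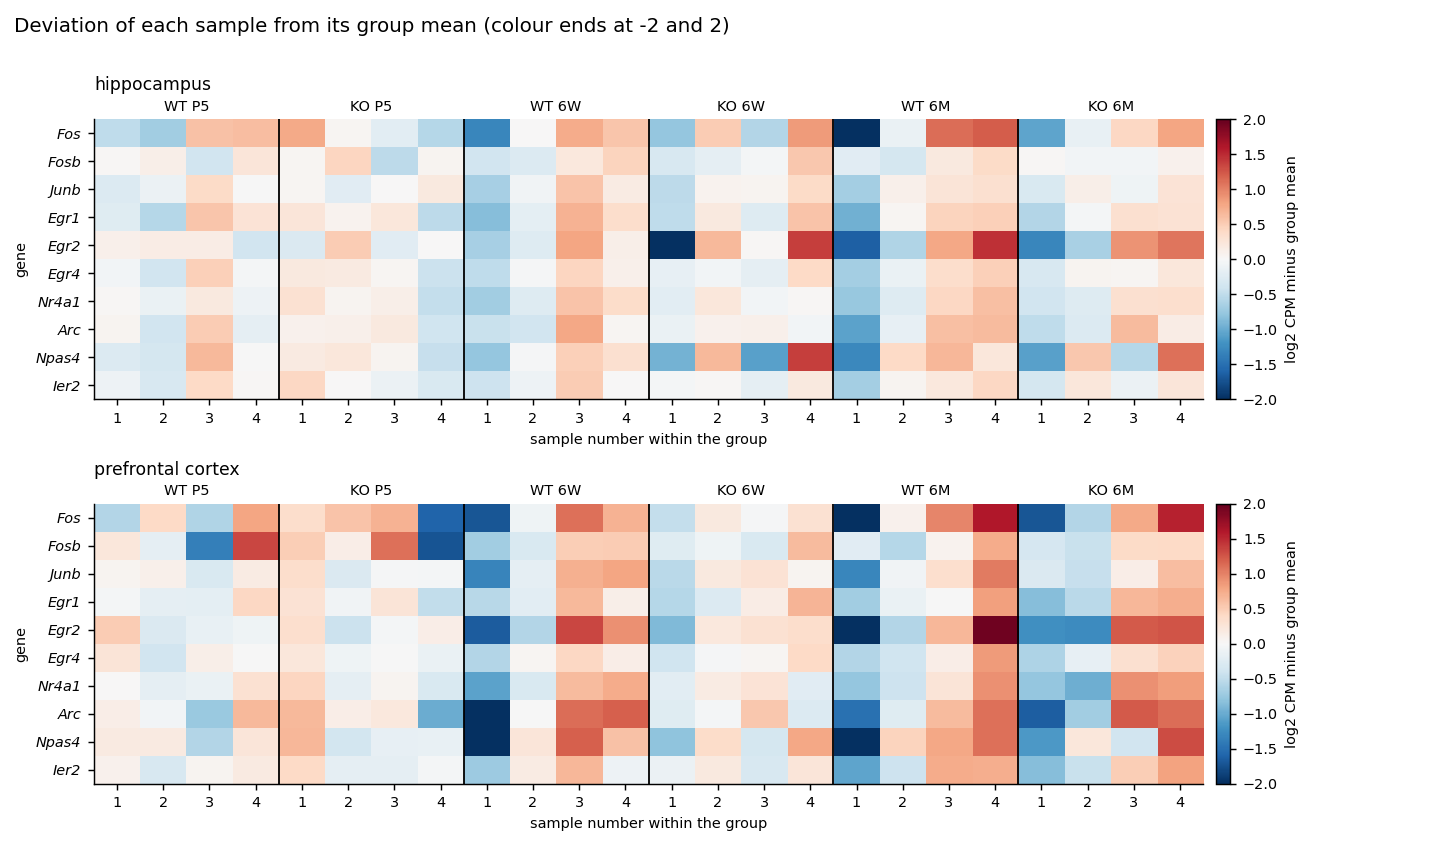
Deviation of each sample from its group's mean log2 CPM for the 10 genes (rows) in hippocampus and prefrontal cortex, with samples in columns by group and number; blue is below and red above the mean, with colours ending at -2 and 2. At 6W and 6M nearly all cells of the columns numbered 1 are blue and most of those numbered 4 are red, for the mean over the genes from -1.31 to -0.45 and from 0.25 to 1.09.

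Arc shows the order and its exceptions. Its prefrontal values at 6M were 9.64, 18.7, 70.5 and 65.4 CPM in KO and 14.4, 34.0, 62.5 and 86.9 CPM in WT for numbers 1 to 4, and its hippocampus values were 25.8, 30.1, 56.6 and 40.6 CPM in KO and 20.7, 38.9, 66.4 and 67.3 CPM in WT. In each of these 4 groups samples 1 and 2 were the lower ones. At 6W the KO groups differed from this: Arc was 42.9, 49.6, 50.4 and 45.1 CPM in hippocampus, a narrow range, and 45.6, 52.5, 78.3 and 44.7 CPM in prefrontal cortex, where number 4 was the lowest. Over the 8 groups of 6W and 6M number 1 was the lowest Arc sample in 7 and number 4 in 1, and the highest was number 3 in 5 and number 4 in 3. A test of the number with 3 degrees of freedom, added after the pattern was seen, was run on the 16 samples of 6W and 6M in a tissue. In hippocampus it called 9 of 10 genes, all but Ier2 (edgeR, adjusted p from 0.00176 for Egr1 to 0.0282 for Fosb), where 10% of all genes were called. At an unadjusted p under 0.05 these were 9 of 10 members and 26.7% of all genes. In prefrontal cortex it called 1, Egr1 (adjusted p 0.0277), which was the only gene called of 17226, or 0.00581%. All 10 members, and 5.67% of all genes, had an unadjusted p under 0.05 there. Over all 24 samples of a tissue the number was called for 3 of 10 in hippocampus (Junb, Arc and Egr1, adjusted p 0.0173, 0.0174 and 0.0363), where 4.64% of all genes were called and 9 members and 20.7% of all genes had an unadjusted p under 0.05, and for 0 of 10 in prefrontal cortex, where 0% were, with 8 members and 4.83% of all genes at an unadjusted p under 0.05 (edgeR). At P5 it called 0 of 10 in both tissues in edgeR, where 0.0121% and 0.312% of all genes were called. No member had an unadjusted p under 0.05 there, where 7.6% and 13.9% of all genes did. The P5 fits hold 8 samples in place of 16, so their counts are not comparable with those of 6W and 6M. Among the 6W and 6M samples numbered 2 to 4 the test called 0 of 10 in each tissue, where 0.0296% and 0.00576% of all genes were called. At an unadjusted p under 0.05 were 6 members and 12.2% of all genes in hippocampus, and 9 members and 4.85% in prefrontal cortex. Number 1 was left out there because it had been seen to be the lowest, and these fits hold 12 samples in place of 16 and test 2 degrees of freedom, so their counts are not comparable with those of all 4 numbers.

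Other measures moved with the samples numbered 1 in hippocampus. Beside the mitochondrial share given above, the sum of 6 microglia markers was 245 to 303 CPM in the 4 hippocampus samples numbered 1 at 6W and 6M and 189 to 224 CPM in the other 12, and the sum of 6 astrocyte markers was 6186 to 8149 and 5187 to 6380 CPM. The sum of 5 immature neuron markers was 457 to 595 and 411 to 543 CPM, and that of 5 GABAergic neuron markers 461 to 666 and 629 to 703 CPM. The TMM scaling factor was 0.814 to 0.874 in these 4 samples and 0.928 to 0.986 in the other 12, and in prefrontal cortex 0.923 to 0.963 and 0.93 to 1.02. In prefrontal cortex the microglia and astrocyte sums were 211 to 248 against 190 to 251 CPM, and 5141 to 5732 against 4268 to 6161 CPM. The sum of 8 markers of striatal medium spiny neurons, a cell type of the neighbouring striatum, was 95.5 to 108 CPM in the 4 prefrontal samples numbered 1 and 97.5 to 561 CPM in the other 12. None of these markers was at 0. Their part in the result was not tested.

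The last comparison sets same-numbered hippocampus and prefrontal samples side by side. In each group the deviation of a sample from its group mean was taken on the log2 scale, and deviations in the 2 tissues were correlated over 24 pairs. Pearson's r was 0.87 for Nr4a1, 0.84 for Fos, 0.82 for Egr2 and Egr4, 0.77 for Egr1, 0.76 for Junb and Npas4, 0.75 for Ier2, 0.71 for Arc and 0.41 for Fosb. The median of the 10 was 0.77, where the median of 18845 genes was 0.00 with quartiles of -0.16 and 0.17. Spearman's rho ranged from 0.56 for Fosb to 0.88 for Nr4a1. A permutation test over 100000 random reassignments of the numbers within groups, two-sided, gave unadjusted p from 5e-05 for Egr4 to 0.0935 for Fosb. None passed after Benjamini-Hochberg adjustment over all genes, with adjusted p from 0.272 to 0.973, and 0 of all genes passed, or 0%, while 988, or 5.24%, had an unadjusted p under 0.05. The reassignments treat the groups as independent, while the order of the numbers recurred across the groups of 6W and 6M in both tissues, so the 24 pairs are not 24 separate observations and r does not tell a match within a group from that shared order. Enumerating all 191102976 reassignments gave exact adjusted p from 0.286 to 0.976 and again 0 calls.

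**Figure D5:**
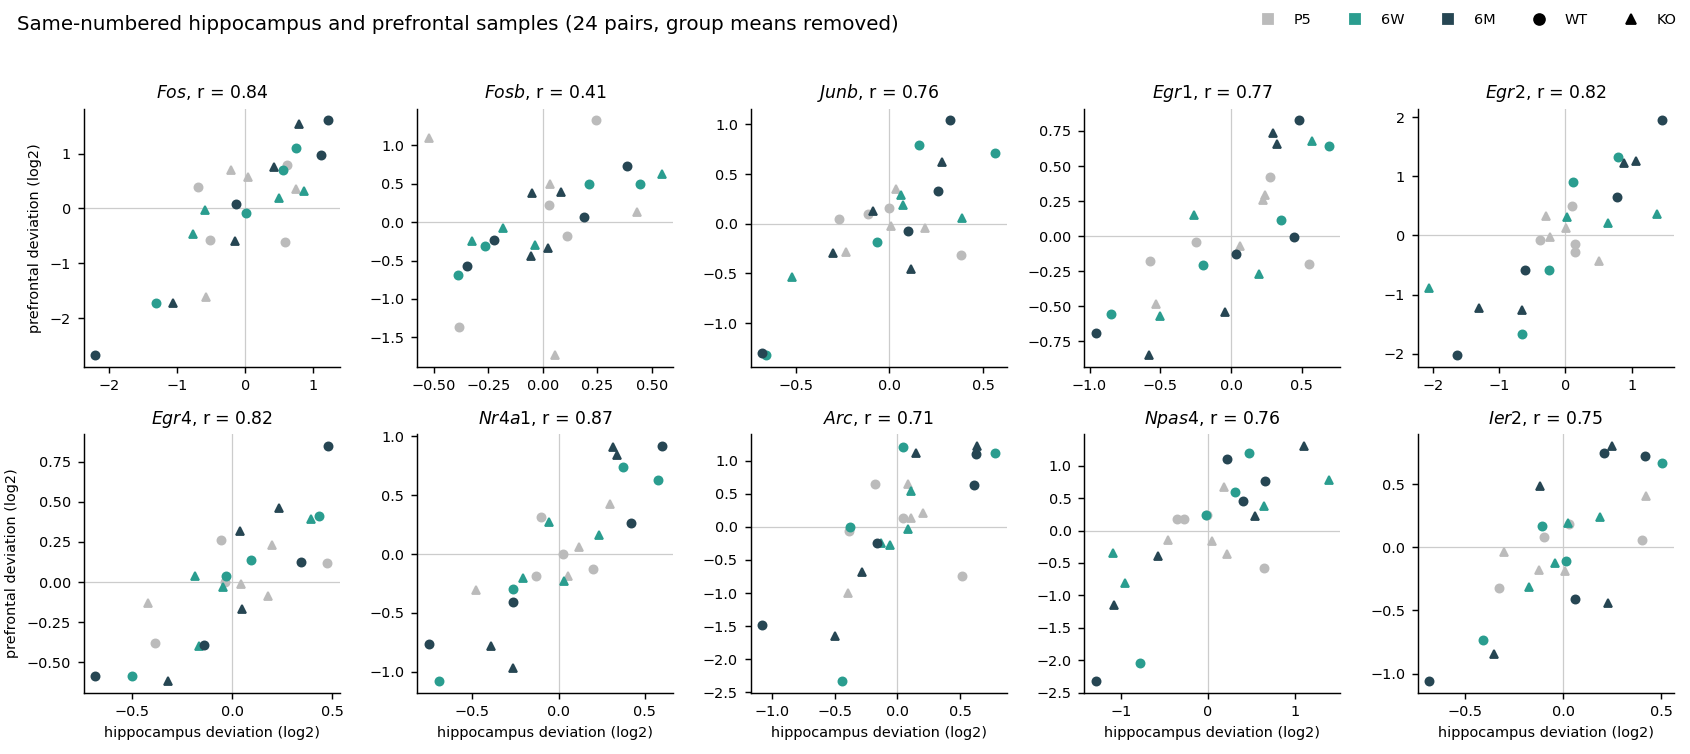
Deviation from the group mean in log2 CPM, hippocampus on the horizontal and prefrontal cortex on the vertical axis, for 24 same-numbered pairs in a panel per gene, coloured by age and shaped by genotype. Pearson's r is 0.41 for Fosb and 0.71 to 0.87 for the other 9 genes, with P5 pairs (grey) nearer the centre in most panels.

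Leaving out the 2 pairs farthest from the median of the hippocampus deviation gave r of 0.57 to 0.83, Fosb going to 0.60. Over the 16 pairs of 6W and 6M the median r was 0.86, from 0.80 to 0.94, and over the 8 pairs of P5 it was 0.22, from -0.46 for Egr2 to 0.70 for Ier2. Within genotypes r was 0.56 to 0.92 in KO and 0.64 to 0.92 in WT for the 9 genes other than Fosb, which had -0.06 and 0.85. Without the samples numbered 1 the median was 0.57, and with the mitochondrial share of each sample regressed out, an alternative added after the data were seen, it was 0.51. The mitochondrial share itself had r of -0.12 between the tissues.

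The members also moved with each other inside a tissue. Over the 45 pairs of members the median r of group-centred log2 CPM was 0.76 in hippocampus (0.25 to 0.94) and 0.80 in prefrontal cortex (0.41 to 0.93), over 24 samples that share library and depth, where the median over all pairs of 12803 genes was 0.01 and 0.00. Fos with Egr1 gave 0.94 in hippocampus, and the lowest pair there was Fosb with Arc at 0.25. Outside the set, the genes most like the members' mean, by the smaller of the 2 tissues' r, were Dusp1 (0.85), Dusp6 (0.78), Sik1 (0.78), Btg2 (0.77), Trib1 (0.74), Spry4 (0.72), Ccn1 (0.68), Dusp5 (0.68), Ppp1r15a (0.63) and Klf2 (0.62), where the median of all genes was -0.15. Dusp1, Dusp5 and Dusp6 encode phosphatases of MAP kinases, and Sik1 a salt-inducible kinase. Of the members, 8 were among the 20 genes at the top of this order, Fosb came 29th, and Egr2 was below the abundance needed. The members' mean contains each member itself, so the ranks of the members are partly built in and are no result. Other measures moved with the members' mean within groups of hippocampus. Its r was -0.72 with the mitochondrial percent of counts, 0.72 with the TMM scaling factor, -0.64 with astrocyte, -0.62 with immature neuron and -0.57 with microglia markers, while the same 5 measures had r of 0.06, 0.13, 0.14, 0.02 and 0.02 in prefrontal cortex. In hippocampus r was also 0.46 with GABAergic neuron, -0.46 with oligodendrocyte and -0.41 with blood markers. Other measures were the strongest in prefrontal cortex. There r was 0.45 with striatal medium spiny neuron markers, 0.37 with log2 total count, 0.36 with oligodendrocyte and -0.31 with blood markers. Their part in the result was not tested.

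Related genes in 4 lists were read in the same fits of 6W against P5. Of all genes tested, 31%, 30.6%, 31.2% and 30.3% were called lower at 6W in KO and WT hippocampus and in KO and WT prefrontal cortex, beside the shares called higher given above. Counts are in that order of the 4 comparisons. Of 15 other rapid transcription factors 6, 6, 5 and 6 rose and 6, 3, 5 and 2 fell. The examples give WT hippocampus and WT prefrontal cortex. Egr3 rose (1.24 ± 0.11 and 1.77 ± 0.18 on the log2 scale) and Myc, a growth regulator, fell by 2.69 and 4.02. Of 27 other rapid response genes 12, 12, 14 and 12 rose and 5, 5, 5 and 6 fell, with Ptgs2, the inducible cyclooxygenase, at 5.54 ± 0.17 and 4.70 ± 0.28. Of 18 delayed activity genes 10, 10, 12 and 14 rose and 3, 2, 2 and 2 fell, with the neurotrophin Bdnf at 1.77 ± 0.11 and 2.54 ± 0.19. Of 22 genes of upstream signalling 13, 13, 11 and 10 rose and 3, 3, 4 and 3 fell, with Camk2a, a calcium-dependent kinase, at 2.76 ± 0.16 and 3.36 ± 0.16. The median log2 difference of the 4 lists was -0.10, 0.25, 0.39 and 0.70 in KO hippocampus, -0.11, 0.34, 0.53 and 0.66 in WT hippocampus, -0.02, 0.60, 1.22 and 0.30 in KO prefrontal cortex and 0.21, 0.53, 1.36 and 0.21 in WT prefrontal cortex. Of 12 clock genes 11, 11, 10 and 10 rose and 1 fell in each comparison, and of 14 heat shock and stress genes 7, 9, 8 and 7 rose and 4, 4, 4 and 3 fell. The hour of dissection is not given in the sources used here. In the 6 comparisons of KO with WT no gene of these 4 lists was called.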

How the data were processed

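RNA of 48 mouse samples was column-purified and made into stranded poly(A) libraries, per the labels' protocols. The deposited values are counts of reads per Ensembl gene, made by the authors. The submitters' processing notes name bcl2fastq 2.20.0.422, STAR 2.4.0, HTSeq and GRCm38, without roles; how the counting treated strand is not given in the sources used here. Symbols matched 54723 of 54838 identifiers. Within groups, 72 pairs of samples differed beyond sampling noise (chi-square per degree of freedom 4.34 to 163), so none was counted as a duplicate.

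Counts were fitted per tissue over 24 samples, or over all 48 for tissue contrasts, with edgeR 4.0.16 (R 4.3.3): TMM scaling, filterByExpr, quasi-likelihood tests, Benjamini-Hochberg adjustment over all tested genes and a threshold of 0.05. A standard error is that of the fitted log2 difference. CPM uses library sizes after TMM scaling, and log2 CPM has a prior count of 1. Alternatives were RLE scaling, other count filters, DESeq2 1.42.0, a replicate block, fits of the 8 samples compared and leaving out samples. The fits without the 4 hippocampus samples numbered 1, the test of the number, the exact enumeration and the regression on mitochondrial share were chosen after seeing the data. Scripts were tested on simulated data. The 10 genes, the lists and the tests were chosen with earlier results of these data known. Named besides the 10 were Mpg, the 10 genes most like them, and, from each list, called genes among the 4 smallest p.

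Over 9732 genes above log2 CPM 3, every same-numbered pair of samples correlated over 0.1 in 2 of 20 comparisons (KO against WT at 6W, and 6M against 6W in KO, both in hippocampus), so the numbers were not taken as pairing samples in the other 18. In those 2 the block changed no call of the 10 genes.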

Additional observations from a re-analysis of the deposited data

Results flagged for a closer look

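In 4 of 120 sets of 4 values, 1 sample lay farther from the rest than Dixon's 95% critical value for the gap over the range allows, where chance flags about 6 sets. Egr2 in WT hippocampus at P5 was 0.874 CPM in sample 4 and 1.24 to 1.29 CPM in the others. Egr2 in KO prefrontal cortex at 6W was 1.51 CPM in sample 1 and 3.26 to 3.60 CPM in the others. Npas4 in KO prefrontal cortex at P5 was 8.59 CPM in sample 1 and 4.17 to 4.87 CPM in the others, and in WT prefrontal cortex at P5 it was 3.78 CPM in sample 3 and 6.40 to 6.68 CPM in the others.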

How the results depend on the processing

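With no filter on low counts, members called numbered 3 for KO against WT, 27 for hippocampus against prefrontal cortex and 1 for the change of genotype effect with age, in place of 0, 10 and 0. Of all genes 3.07% to 4.03% were then called lower in hippocampus. Of 54838 genes 105 were called for KO against WT in hippocampus at 6M and 223 for the change with age in hippocampus. Under a replicate block (the number in the title) the tissue comparison gave 22 calls of 60, where 10.2% to 14.3% of all genes were called lower in hippocampus. Under a block of genotype, age and number together it gave 36, where 9.7% to 13.2% were. All of these were lower in hippocampus. The block moved no other count of calls beyond 1.5 times. The median correlation of same-numbered samples, 0.77, was 0.22 at P5 only and 0.51 with mitochondrial share regressed out. The cause of these differences was not tested. Leaving out 1 sample at a time gave 29 to 33 calls for 6W against P5 and 8 to 19 for the tissue comparison, the 19 without the WT 6M prefrontal sample numbered 1, and 0 to 0 for the other comparisons. Leaving out 1 number at a time gave a median correlation of 0.57 to 0.84 and a median within-group SD of 0.47 to 0.67, where all samples gave 0.60. No direction reversed among the called values under the alternatives run. Low counts limit Egr2, with 2 to 65 counts in hippocampus at 6W and 6M, and Fosb at P5.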
